A study of Homo sapiens with 12 samples.

Results

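The ZNF genes are human genes whose approved symbol is ZNF followed by a number, most of which encode zinc finger proteins. Members were all protein-coding genes of that name in either of the deposited tables. There were 50 of them among the 2983 genes and loci listed, 21 of 1810 in a table for the ferroptosis inducer RSL3 and 32 of 1424 in a table for ATOH8 overexpression, and 3 were in both. RefSeq annotates 517 protein-coding ZNF genes. The 50 members equal 9.67% of that number, although 1 of them, ZNF8-ERVK3-1, is not among the 517. RNA was sequenced from DU145, a human prostate cancer cell line, in 4 groups of 3 libraries. Wild-type cells with the solvent DMSO were compared with wild-type cells given RSL3, an inhibitor of the lipid peroxide reductase GPX4, for 24 h. Cells with an overexpression control (oeCTRL) were compared with cells overexpressing ATOH8 (oeATOH8), a basic helix-loop-helix transcription factor. The labels give neither the vector nor whether each construct was introduced once or several times, so each arm may be 1 population of cells.

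Most ZNF proteins carry an array of C2H2 fingers, short loops held by a zinc ion that read DNA bases one finger after another. A large share also carries a KRAB domain, which recruits the corepressor TRIM28 (KAP1) and, through it, the histone methyltransferase SETDB1 and HP1 proteins. KRAB zinc finger genes have multiplied by tandem duplication, mainly on chromosome 19, and many of them silence transposable elements. The name also covers unrelated proteins, such as ZNF185, a LIM-domain protein of the actin cytoskeleton, and ZNF598, a ubiquitin ligase that senses collided ribosomes. A pattern for the KRAB box in the translated reading frames matched 326 of the 511 annotated ZNF genes with a reading frame (63.8%) and only 32 of 19290 other protein-coding genes. It misses divergent boxes, so genes without a match may still encode one.

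Each table is restricted to genes the authors had called, and a ZNF gene outside them was not analysed here. The direction of a listed gene therefore comes from the authors' call. Reads over listed genes were 2523743 to 3096832 per library in the RSL3 table and 1508188 to 2226518 in the ATOH8 table, and these are not library depths. The overexpressed gene, ATOH8, was read 76508, 72569 and 76043 times with the ATOH8 construct and 13, 10 and 4 times with the control construct. Of 9 epithelial and prostate markers, only CDH1 and EPCAM (RSL3) and CDH1 and KRT8 (ATOH8) were listed, all lower, so the labelled cell type could be checked only in part. Of 7 markers of blood, vessel and stroma, CD68, a macrophage marker, was listed in the RSL3 table at 1607, 829 and 787 normalised reads in DMSO and 4290.3, 1535 and 1498 with RSL3. It was 2.27-fold higher without passing (limma adjusted p = 0.0540), with replicate 1 the highest of each group, and its part in the ZNF values was not tested. HBA1, HBA2 and HBB were listed in the ATOH8 table, where HBB had 0 reads in every oeCTRL library and 24191, 1411 and 5593 in the oeATOH8 libraries, and the part of this in the ZNF values was not tested. Replicates 2 and 3 of the RSL3 table were close to repeats of 1 sample: per degree of freedom, chi-square was 1.64 between the DMSO pair and 1.80 between the RSL3 pair, and 59.1 to 101 for any pair with replicate 1. In bulk RNA, fewer cells and less RNA per cell cannot be told apart.

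ZNF107, ZNF714 and ZNF185 were the 3 members in both tables. The RSL3 table places them on the plus strand of GRCh38, at chr7:64665010-64711582, chr19:21082203-21125094 and chrX:152898067-152973481. ZNF107 and ZNF714 encode C2H2 proteins, with 16 and 12 finger patterns, and were lower in the treated group of both. ZNF185, whose reading frame holds no C2H2 pattern, was lower with RSL3 and higher with ATOH8. The tables share no library and were scaled apart, so their levels cannot be set side by side.

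ZNF107 had 162, 179 and 199 normalised reads in the DMSO libraries and 59.4, 79.7 and 95.7 with RSL3. The groups did not overlap, and the mean was 2.30-fold lower (180 ± 18.7 against 78.3 ± 18.2, SD, n = 3). The limma log2 fold change was -1.21 (SE 0.26, adjusted p = 0.0187). In the ATOH8 table ZNF107 had 1527, 1644 and 1578 control reads and 826, 779 and 670 reads with ATOH8. This was 2.13-fold lower after scaling, with an edgeR log2 fold change of -1.09 (SE 0.099, adjusted p = 9.03e-07). Neither call held in every setting. For RSL3 the adjusted p was 0.0853 without DMSO replicate 2 and 0.0860 without DMSO replicate 3, and for ATOH8 it was 0.114 when scaled by relative log expression. With the trend in GC content and length over all listed genes removed, the log2 change was 0.14 for RSL3 and -0.063 for ATOH8.

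ZNF714 had 19.8, 75.6 and 68.1 normalised reads in DMSO and 7.24, 27.2 and 25.3 with RSL3. Replicate 1 was low in both groups, so the groups overlapped although the ratio of RSL3 to DMSO was nearly the same in each replicate, at 0.366, 0.360 and 0.372. The limma adjusted p was 0.0725, 0.00428 with the replicate number as a block, and 0.177 with replicates 2 and 3 averaged. In the ATOH8 table ZNF714 had 2208, 2173 and 2325 reads with the control construct, then 1195, 1015 and 1108 with ATOH8, 2.07-fold lower, with no overlap (edgeR log2 fold change -1.05, SE 0.078, adjusted p = 1.75e-07).

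ZNF185 had 681, 1178 and 1201 normalised reads in DMSO and 592, 666 and 631 with RSL3. Its fall of 1.62-fold passed narrowly (limma log2 fold change -0.65, SE 0.25, adjusted p = 0.0461), and the lowest DMSO library lay just above the highest RSL3 library. In the ATOH8 table it had 1536, 1531 and 1580 control reads and 3246, 3276 and 3164 with ATOH8. All 3 libraries with ATOH8 were about the same height, 2.04-fold above the control (edgeR log2 fold change 1.03, SE 0.072, adjusted p = 1.09e-07).

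**Figure D1:**
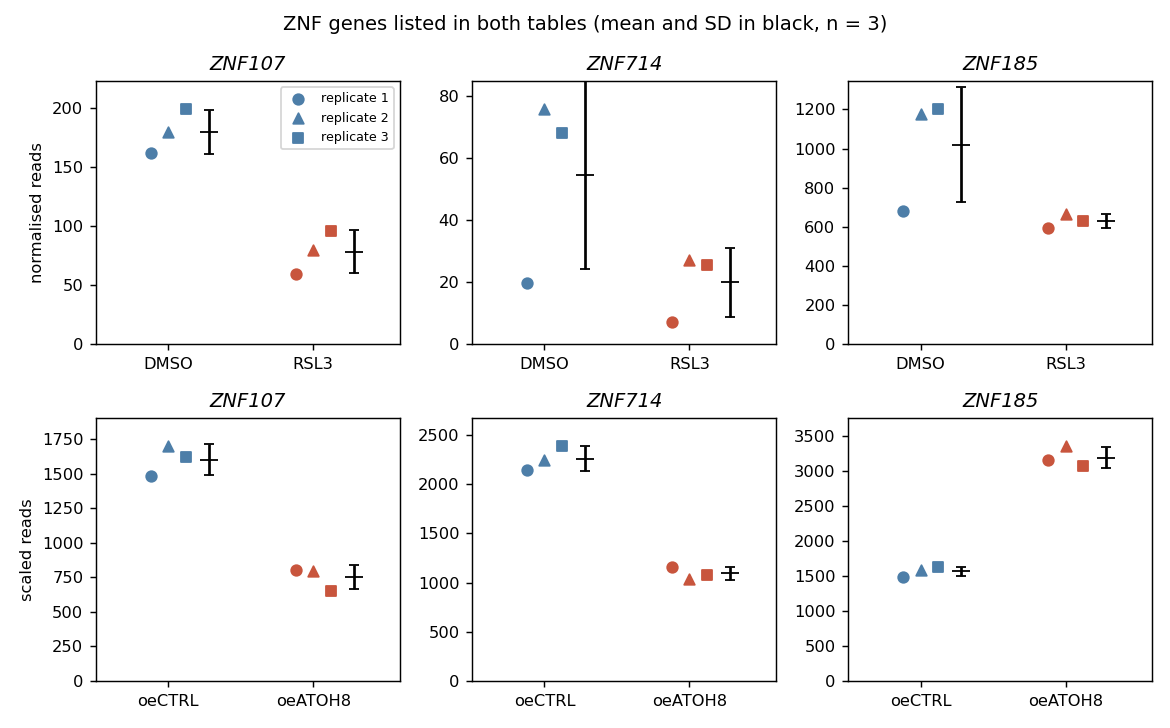
Reads per library of the 3 ZNF genes in both tables, as normalised reads for DMSO and RSL3 and scaled reads for oeCTRL and oeATOH8, each point a library numbered by replicate and the black bars the mean and SD (n = 3). ZNF107 and ZNF714 are lower in the treated group of both tables by 2.07-fold to 2.73-fold, and ZNF185 is 1.62-fold lower with RSL3 and 2.04-fold higher with ATOH8.

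The promoters of ZNF107 and ZNF714 are more alike than either is to that of ZNF185 (79.3% of alignment columns, gaps included, against 50.9% and 50.7%). The 250 bases before the RefSeq start (GRCh38.p14) were at hand for 39 of the 50 members. Capitals mark the E-box CANNTG, the core that basic helix-loop-helix factors bind, and CCAATCAG, a CCAAT box with its next bases. Both were searched on both strands, and in the printed promoters the motifs share no base. ZNF43, which lies in the same chromosome 19 cluster as ZNF714 and was listed lower with RSL3, is added for comparison. The stretches are chr7:64665883-64666132 (+) for ZNF107, chr19:21081953-21082202 (+) for ZNF714, chr19:21836183-21836432 (-) for ZNF43 and chrX:152914182-152914431 (+) for ZNF185.
ZNF107: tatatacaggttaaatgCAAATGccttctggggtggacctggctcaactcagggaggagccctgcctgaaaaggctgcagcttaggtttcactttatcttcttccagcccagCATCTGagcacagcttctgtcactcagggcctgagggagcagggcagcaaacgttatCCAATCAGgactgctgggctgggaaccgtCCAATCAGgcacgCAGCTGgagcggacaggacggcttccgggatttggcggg
ZNF714: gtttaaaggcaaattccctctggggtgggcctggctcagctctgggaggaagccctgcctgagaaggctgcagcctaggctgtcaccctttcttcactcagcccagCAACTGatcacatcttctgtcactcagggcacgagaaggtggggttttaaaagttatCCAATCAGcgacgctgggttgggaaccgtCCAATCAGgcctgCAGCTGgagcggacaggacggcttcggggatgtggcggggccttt
ZNF43: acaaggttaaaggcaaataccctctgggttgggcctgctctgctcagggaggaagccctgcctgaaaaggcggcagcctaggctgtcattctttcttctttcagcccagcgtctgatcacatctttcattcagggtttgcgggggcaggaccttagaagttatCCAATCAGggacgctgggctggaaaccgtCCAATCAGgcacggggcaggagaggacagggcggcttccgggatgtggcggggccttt
ZNF185: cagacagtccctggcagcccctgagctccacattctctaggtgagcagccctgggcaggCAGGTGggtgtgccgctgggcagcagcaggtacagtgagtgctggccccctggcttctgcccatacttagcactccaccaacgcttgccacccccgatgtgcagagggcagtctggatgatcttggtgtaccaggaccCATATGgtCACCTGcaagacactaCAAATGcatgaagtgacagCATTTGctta

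ZNF107 on chromosome 7 and ZNF714 on chromosome 19 share 79.3% of alignment columns in this window, and ZNF714 and ZNF43 share 82.3%. A column with a gap counts as not shared, so these shares fall with gaps as well as with differing bases. In a set of 5 promoters chosen by hand, ZNF107, ZNF714, ZNF737, ZNF43 and ZNF254, the 10 pairs share 75.4% to 82.3%. ZNF708, of the same cluster as ZNF714, was left out of the set. Its window holds stretches of the same sequence in a shifted position, and it shares 52.6% to 56.0% with the 5. Among 15 members compared, the 92 pairs under 70% had a median of 50.1%. The windows were aligned end to end and the pairs of ZNF708 are among these, so a low share does not show that a pair is unrelated. The longest exact run shared by ZNF107 and ZNF714, 26 bases, was gcagctggagcggacaggacggcttc. It holds an E-box (CAGCTG) and is also in the promoters of ZNF273, ZNF431 and ZNF680 and in no other of the 35116 promoters, and none of these 3 genes was listed. The motif CCAATCAG, chosen after these sequences were seen, is in 7 of the 39 member promoters (17.9%), in 13.8% of the 647 promoters with a ZNF symbol and in 3.81% of all. The 7 are ZNF107, ZNF714, ZNF43, ZNF708, ZNF737, ZNF254 and ZNF563, each listed as lower wherever it was listed, ZNF43 with too few reads to test. The motif was seen in printed promoters of genes listed as lower, so this is no test of it. All 7 have a GC content up to 46%, where 9 of 9 members were lower with RSL3 and 19 of 21 with ATOH8. The spans given for ZNF185, ZNF107 and ZNF43 in the RSL3 table begin upstream of the printed windows. They begin at positions 152898067, 64665010 and, on the minus strand, 21852095. Their reads there may include an earlier start, and the printed window may not be the promoter in use.

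An E-box was present in 20 of the 39 member promoters (51.3%) and in 61.8% of all 35116. Of the members lower with ATOH8, 11 of 16 promoters had one, and of those higher, 4 of 10. For RSL3 the counts were 7 of 12 for lower and 1 of 4 for higher members. The promoters of members higher with ATOH8 had a median of 24 CpG dinucleotides, those of lower members 15.5, and all promoters 11. A match is a run of letters and does not show that a factor binds there.

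With RSL3 the listed members with a KRAB match all had lower means, and those without a match split. Those with a match were all GC-poor, at 35.8% to 42.1% over the longest transcript. Up to 46% GC, 9 of 9 members were lower, among them ZNF277, ZNF714 and ZNF518B without a match. So were 83.6% of the 402 listed genes in that range, so the direction is not particular to members with a match. By the ratio of means, 14 of the 21 members were lower and 7 higher (66.7% lower, where 47.1% of all listed genes were lower and 52.9% higher). Among the 19 that passed the low-count filter, 12 passed limma with Benjamini-Hochberg adjustment over the table (63.2%), 7 lower and 5 higher. The same test called 81.7% of all genes tested (43.4% higher and 38.4% lower). With the replicate number as a block, 18 passed, 7 higher and 11 lower, against a background of 99.3% (53.7% higher and 45.6% lower). The groups did not overlap for 13 of the 21 members, against 86.4% of listed genes.

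**Figure D2:**
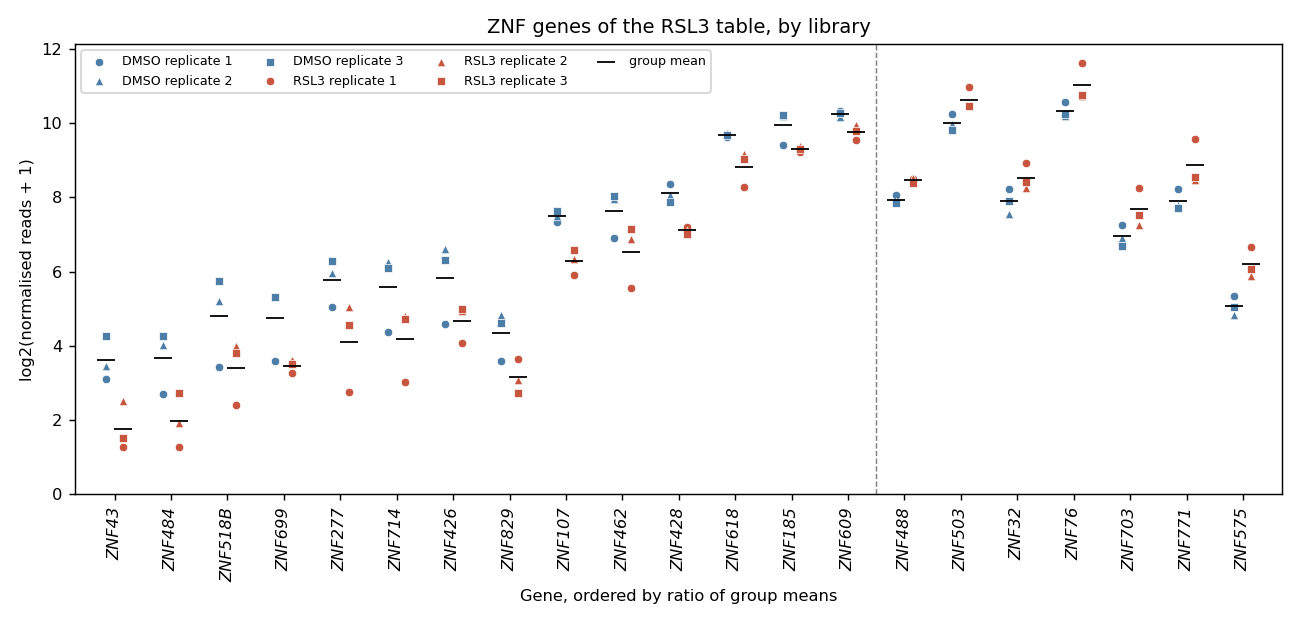
Normalised reads of the 21 ZNF genes of the RSL3 table, genes ordered by the ratio of group means on the x axis and each point 1 library of DMSO or RSL3. The genes at the left are 4.49-fold lower (ZNF43) and those at the right up to 2.28-fold higher (ZNF575) with RSL3.

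All 6 members with a KRAB match were lower with RSL3, ZNF43, ZNF484, ZNF699, ZNF426, ZNF829 and ZNF107. Only ZNF107 and ZNF829 passed, and 2 were too low to test. ZNF699 had 11.0, 38.9 and 39.3 normalised reads in DMSO and 8.69, 11.3 and 10.3 with RSL3 (2.95-fold, adjusted p = 0.0513). ZNF426 had 23.1, 96.2 and 78.6 in DMSO and 15.9, 30.0 and 31.0 with RSL3 (2.57-fold, adjusted p = 0.0779). In both, the DMSO library of replicate 1 lay near the RSL3 values, which made the groups overlap. With the replicate block both passed, at adjusted p = 0.0263 and 0.0128 in limma, and with replicates 2 and 3 averaged they were at 0.224 and 0.216.

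Reads were fewest among these genes. ZNF43 had 7, 13 and 21 reads in DMSO and 1, 5 and 2 with RSL3, and ZNF484 had 5, 20 and 21 against 1, 3 and 6. Both stayed under 10 reads in every RSL3 library and did not enter the test. ZNF829 was the other such member, with 8, 8 and 6 reads in RSL3 and 10.99, 27.5 and 23.6 normalised reads in DMSO. Its fall of 2.51-fold passed in limma (adjusted p = 0.0490) but not with the block (adjusted p = 0.0601) or with a pseudocount of 0.1 (adjusted p = 0.0541). No member of the ATOH8 table had fewer than 10 reads in all libraries of a group.

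The lower members without a KRAB match included several factors with known partners. ZNF618, which interacts with the ubiquitin ligase UHRF2, had 792, 850 and 828 normalised reads in DMSO and 310, 575 and 524 with RSL3. The groups were well apart, and the 1.75-fold fall passed (limma log2 fold change -0.86, SE 0.26, adjusted p = 0.0346). ZNF428 had 331, 268 and 234 in DMSO and 146, 137 and 130 with RSL3, a 2.02-fold fall (log2 fold change -0.99, SE 0.22, limma adjusted p = 0.0194). ZNF609, which acts with cohesin and Integrator in developing neurons, fell from 1227 ± 66.7 to 871 ± 121 (SD, n = 3; 1.41-fold, limma adjusted p = 0.0413). ZNF277 had 31.9, 61.8 and 76.8 in DMSO and 5.79, 31.9 and 22.5 with RSL3, and its 2.83-fold fall passed although the lowest DMSO and the highest RSL3 library were level (limma adjusted p = 0.0461). ZNF462 and ZNF518B, both factors tied to chromatin, were 2.07-fold and 3.02-fold lower without passing (limma adjusted p = 0.0577 and 0.0836). With the block they passed, at 0.00337 and 0.0101, and with replicates 2 and 3 averaged they did not, at 0.172 and 0.194.

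The 7 higher members all lacked a KRAB match. None overlapped between groups, and neither did 878 of the 958 higher listed genes, so this is not particular to the members. ZNF575 had 39.6, 27.5 and 32.3 normalised reads in DMSO and 101, 58.2 and 66.6 with RSL3, a 2.28-fold rise (limma log2 fold change 1.14, SE 0.32, adjusted p = 0.0317). ZNF771 rose 2.05-fold, from 300.1, 223 and 209 to 766, 356 and 375 (adjusted p = 0.0407). ZNF76, a relative of the promoter factor ZNF143, had 1533, 1164 and 1211 in DMSO and 3144, 1694 and 1748 with RSL3, a 1.68-fold rise (adjusted p = 0.0464). In each of these, replicate 1 was the highest library of the RSL3 group. ZNF503 and ZNF703 are a pair of related corepressors with a single finger region. ZNF503 rose 1.54-fold (limma adjusted p = 0.0407), and ZNF703 was 1.71-fold higher without passing (adjusted p = 0.0547, 0.0119 with the block and 0.179 with replicates 2 and 3 averaged). ZNF488, a partner of OLIG2 in oligodendrocytes, rose 1.44-fold from 245 ± 20.5 to 353 ± 18.1 (SD, n = 3; limma adjusted p = 0.0409). ZNF32 was 1.56-fold higher (adjusted p = 0.0515, 0.00592 with the block and 0.192 with replicates 2 and 3 averaged).

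Replicate 1 stood apart in the same direction as the treatment. In DMSO, 12 of the 14 lower members were lower in replicate 1 than in replicates 2 and 3, by a median of -1.10 on the log2 scale, and 7 of 7 higher members were higher, by 0.39. In RSL3 the counts were again 12 of 14 and 7 of 7, with medians of -0.82 and 0.69. All listed genes, lower and higher together, had medians of 0.15 in DMSO and 0.22 in RSL3. They were not split by direction, so these medians are no like comparison for the members. The counts of members have no share over all lower or higher listed genes beside them either, so they may not be particular to the members. Without replicate 1 in both groups all 21 members passed, as did 98.9% of the table, a comparison that rests on the near repeats alone. With 1 library left out, the count was 20 without DMSO replicate 1 (background 84.2%) and 9 without RSL3 replicate 1 (55.7%). There were 2 without RSL3 replicate 2 (15%) and 1 without RSL3 replicate 3 (17.7%). Without DMSO replicate 2 or 3 there were 0 in limma, with 4 at an unadjusted p under 0.05 in each case (background 0.345% and 0.46%). With replicates 2 and 3 averaged into 1 sample, 0 members passed in limma and 5 had an unadjusted p under 0.05 (background 0.174%), with adjusted p of 0.146 for ZNF107 to 0.257 for ZNF829. The calls with the replicate block take replicates 2 and 3 as separate pairs and do not survive this averaging. On the recovered reads DESeq2 called 19 members (background 99.7%) and edgeR 16 (background 89.2%). When every annotated gene was counted as a test, 0 passed in limma (background 0.116%), and 15 had an unadjusted p under 0.05. Scaling to the totals over listed genes in place of the authors' size factors moved the median of all genes by -0.47 on the log2 scale. Under it 5 members passed, all lower (background 36.6%), and 24.3% of the whole table's calls were higher, against 53.1% with the authors' factors. With TMM 7 passed (background 53.2%) and with relative log expression 7 (background 51.7%), each with 1 of them higher.

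With ATOH8 overexpression, 14 of the 15 listed members with a KRAB match were lower, and 12 of the 17 without a match were higher. Those with a match had a GC content of 34.1% to 45.1%. Up to 46% GC, 19 of 21 members were lower, with or without a match, as were 82.5% of 302 listed genes. Of the 32 members, 19 were lower and 13 higher, and all 32 passed edgeR's quasi-likelihood test with Benjamini-Hochberg adjustment. So did 100% of the genes listed, of which 41.4% were higher and 58.6% lower, so passing says nothing particular about the members. When every annotated gene and assembled locus was counted as a test, 27 members passed, against 82.2% of the table. No listed gene had a ratio of means under about 2-fold, so the smallest member changes (2.02-fold) lie at the authors' limit. The groups did not overlap for 31 of 32 members, against 99.6% of listed genes. The exception was ZNF287, with 109, 178 and 233 reads with the control construct, then 65, 70 and 126 with ATOH8 (edgeR adjusted p = 0.0108, and 0.0741 without oeCTRL replicate 3). Scaling by relative log expression over the listed genes, which takes these genes as balanced, moved the median of all genes by 0.91 on the log2 scale. Under it 18 members passed, 13 higher and 5 lower, against 71.5% of the table, and 57.9% of all calls were higher. ZNF107 was then at -0.18 (edgeR adjusted p = 0.114) and ZNF714 at -0.14 (adjusted p = 0.115). Of the lower KRAB genes only ZNF607 and ZNF845 still passed under that scaling.

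**Figure D3:**
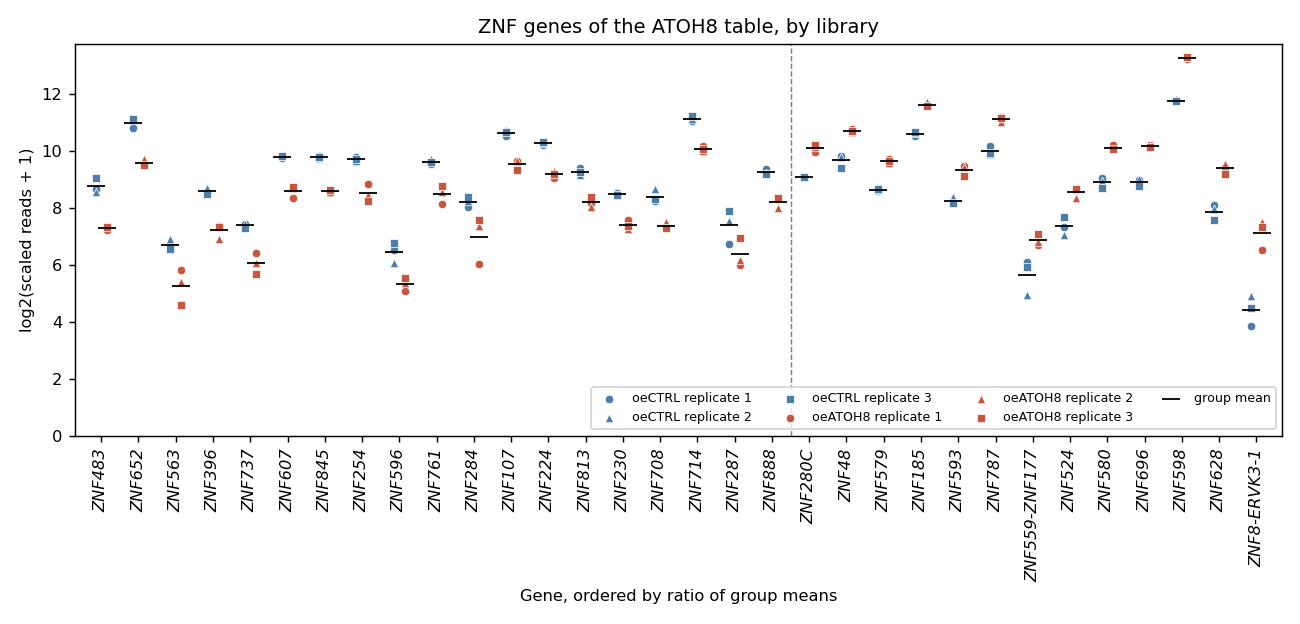
Scaled reads of the 32 ZNF genes of the ATOH8 table, genes ordered by the ratio of group means on the x axis and each point 1 library of oeCTRL or oeATOH8. The ratios run from 2.79-fold lower (ZNF483) to 6.75-fold higher (ZNF8-ERVK3-1), and libraries of a group lie close together.

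Of 15 members with a KRAB match, 14 were lower, by 2.05-fold to 2.59-fold. ZNF845, with 26 finger patterns the longest array among them, had 938, 834 and 869 control reads and 397, 365 and 411 with ATOH8. Its fall was 2.30-fold with little spread (edgeR log2 fold change -1.20, SE 0.084, adjusted p = 1.10e-07). ZNF607 fell by the same 2.30-fold, from 901, 887 and 876 reads to 333, 403 and 446 (adjusted p = 1.16e-06). ZNF224, a TRIM28-dependent repressor that also acts with WT1, had 1229, 1201 and 1248 reads with the control construct, then 551, 609 and 606 with ATOH8, a 2.13-fold fall (edgeR adjusted p = 2.16e-07). ZNF737 fell 2.49-fold from 177, 168 and 152 reads to 88, 64 and 52, and ZNF254 fell 2.27-fold from 915, 775 and 816 to 472, 346 and 311. The largest fall in this set was that of ZNF563, from 103, 115 and 91 reads to 58, 40 and 24 (2.59-fold, edgeR adjusted p = 0.00197). It was also one of the least covered members and did not pass with every annotated gene as a test (adjusted p = 0.104).

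Some of these reads can come from a relative. Of the 50-base stretches of its longest transcript, ZNF284 shares 43.9% with other genes, ZNF888 16.2%, ZNF813 11.0%, ZNF254 10.1% and ZNF761 10.1%. ZNF737 shares 9.67%, ZNF607 9.15% and ZNF845 6.75%. Of the members lower with RSL3, ZNF277 shares 14.6%, mostly with RN7SKP187 (13.0%). ZNF107 shares 0.596% and ZNF714 4.69%. How the authors' pipeline assigned reads with several matches is not given in the sources used here. Members that share 6.75% or more are therefore uncertain as single genes. ZNF284 varied widely within oeATOH8, with 66, 161 and 195 reads in oeATOH8 against 268, 293 and 329 in oeCTRL.

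The only KRAB match that was higher was the readthrough locus ZNF559-ZNF177, at 70, 29 and 58 control reads and 107, 109 and 141 with ATOH8 (2.24-fold, edgeR adjusted p = 0.00444). It shares 93.9% of its stretches with other genes, mostly ZNF177, so its reads cannot be assigned to the locus with any certainty. ZNF8-ERVK3-1, a second readthrough locus that GENCODE counts as protein-coding and RefSeq as a long noncoding RNA, was 6.75-fold higher. It had 14, 28 and 21 reads with the control construct, then 94, 176 and 166 with ATOH8 (edgeR log2 fold change 2.75, SE 0.38, adjusted p = 3.06e-05), and it overlaps ZNF8.

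The 5 lower members without a KRAB match were ZNF483, ZNF652, ZNF396, ZNF714 and ZNF287. ZNF483, ZNF396 and ZNF287 belong to the SCAN-domain group, whose members pair with each other through that domain. ZNF483 had 418, 368 and 515 control reads and 152, 160 and 164 with ATOH8, a 2.79-fold fall (edgeR log2 fold change -1.48, SE 0.16, adjusted p = 5.55e-06). ZNF396 fell 2.58-fold, from 394, 399 and 351 to 171, 118 and 166. ZNF652, a repressor that works with the corepressor CBFA2T3, had 1844, 2116 and 2179 reads with the control construct, then 769, 818 and 763 with ATOH8, a 2.67-fold fall (edgeR log2 fold change -1.42, SE 0.10, adjusted p = 1.21e-07).

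The 12 higher members without a KRAB match included 2 with roles at the ribosome. ZNF598, the sensor of collided ribosomes, had 3563, 3494 and 3354 control reads and 9954, 9823 and 10380 with ATOH8. It rose 2.84-fold with the smallest standard error of any member (edgeR log2 fold change 1.50, SE 0.053, adjusted p = 6.71e-10). ZNF593, a factor of large ribosomal subunit assembly, had 299, 321 and 281 reads with the control construct, then 729, 677 and 580 with ATOH8 (2.16-fold, edgeR adjusted p = 8.06e-06), but its log2 change turned to -0.13 with the GC and length trend removed. ZNF628 rose 2.87-fold, from 282, 240 and 184 reads to 719, 729 and 611. ZNF696 rose 2.41-fold and ZNF580 2.32-fold, the latter from 556, 478 and 403 reads to 1227, 1051 and 1127. ZNF524, ZNF787, ZNF579, ZNF48, ZNF185 and ZNF280C rose by 2.02-fold to 2.26-fold. With the GC and length trend removed ZNF787 turned to -0.33 and ZNF524 was at 0.016 (edgeR adjusted p = 0.940).

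On chromosome 19 the listed genes of a cluster mostly shared a direction. This chromosome holds 250 of the 517 annotated ZNF genes (48.4%) and 26 of the 50 members (52%). Annotated ZNF genes were chained into clusters where neighbours lay within 0.5 Mb. Of all genes listed on chromosome 19, 22.3% were lower with RSL3 and 50% with ATOH8, where 6 of 7 and 13 of 20 members were.

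**Figure D4:**
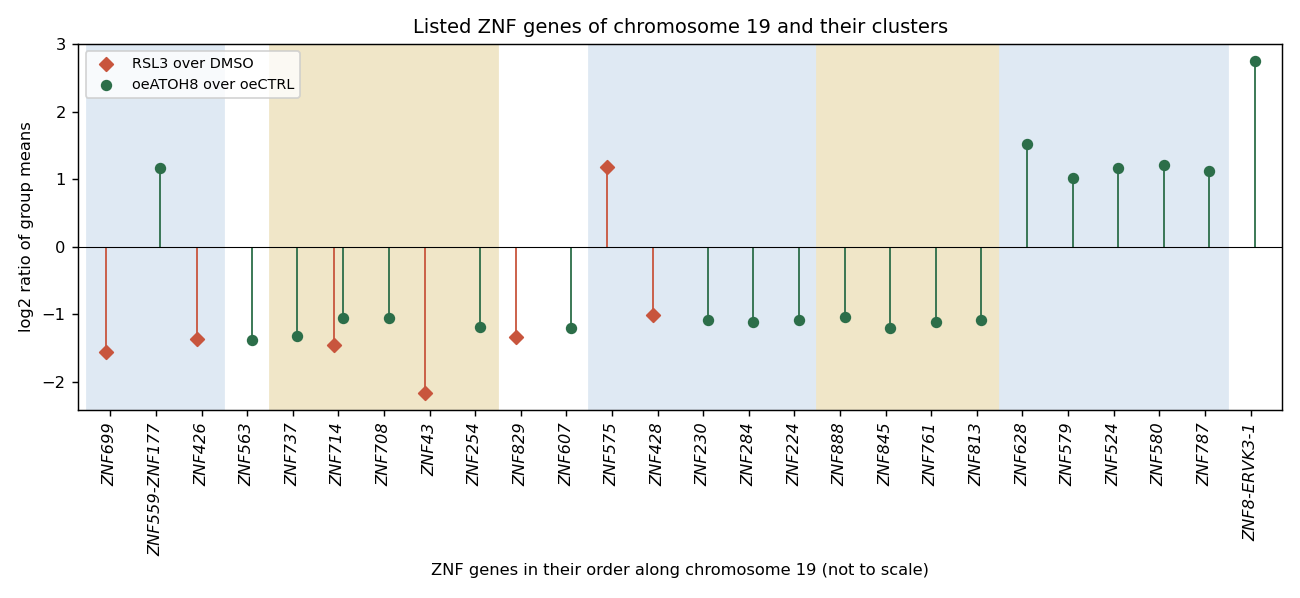
Log2 ratio of group means for the 26 listed ZNF genes of chromosome 19 in their order along it, with shaded bands for clusters that hold at least 3 listed genes. In the last band all 5 genes are higher with ATOH8, and in the bands with ZNF254 and ZNF845 all genes are lower.

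The cluster at chr19:19668153-24129968 holds 37 annotated ZNF genes, 35 with a KRAB match. In it ZNF737, ZNF714, ZNF708 and ZNF254 fell with ATOH8, and ZNF714 and ZNF43 were lower with RSL3. The cluster at chr19:51571283-53580269 holds 41, 40 with a match, and its 4 members ZNF888, ZNF845, ZNF761 and ZNF813 all fell with ATOH8, by 2.05-fold to 2.30-fold. At chr19:43530835-44500522, ZNF230, ZNF284 and ZNF224 fell with ATOH8, and the members listed for RSL3, ZNF575 and ZNF428, went in opposite directions. At chr19:8509678-9786160, ZNF699 and ZNF426 were lower with RSL3 and ZNF559-ZNF177 was higher with ATOH8. The cluster at chr19:55476617-56671757 was the other way round. It holds 17 annotated ZNF genes, 6 with a KRAB match, and its 5 members ZNF628, ZNF579, ZNF524, ZNF580 and ZNF787 all rose with ATOH8. Its annotated ZNF genes had a median GC content of 57.8%. In the clusters with ZNF254, ZNF845, ZNF224 and ZNF699 the median was 37.6%, 41.5%, 42.5% and 42.7%. Of all listed genes, 82.5% up to 46% GC and 40.7% above 58% were lower with ATOH8.

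Promoters of 4 members are printed, from a falling and a rising cluster. ZNF845 (chr19:53333499-53333748, +) and ZNF761 (chr19:53431734-53431983, +) come from a falling cluster and share 83.4% of alignment columns, the highest of the 105 pairs compared. ZNF813 of that cluster shares 73.9% with ZNF845 and 72.5% with ZNF761. ZNF628 (chr19:55476367-55476616, +) and ZNF580 (chr19:55640752-55641001, +) come from the rising cluster and share 54.0%. That lies within the 45.8% to 61.0% of the pairs under 70%, so they are not shown to be copies. Capitals again mark CANNTG and CCAATCAG.
ZNF845: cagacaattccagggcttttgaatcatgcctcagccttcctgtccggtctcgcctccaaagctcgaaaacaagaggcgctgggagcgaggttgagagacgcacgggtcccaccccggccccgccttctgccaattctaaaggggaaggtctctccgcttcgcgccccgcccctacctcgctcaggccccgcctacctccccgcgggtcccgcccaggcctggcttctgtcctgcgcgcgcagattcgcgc
ZNF761: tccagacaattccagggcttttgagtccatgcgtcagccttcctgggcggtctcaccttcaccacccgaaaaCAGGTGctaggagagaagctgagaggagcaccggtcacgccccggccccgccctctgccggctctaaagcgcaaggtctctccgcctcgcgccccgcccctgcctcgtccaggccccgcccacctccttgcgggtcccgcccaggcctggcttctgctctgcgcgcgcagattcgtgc
ZNF628: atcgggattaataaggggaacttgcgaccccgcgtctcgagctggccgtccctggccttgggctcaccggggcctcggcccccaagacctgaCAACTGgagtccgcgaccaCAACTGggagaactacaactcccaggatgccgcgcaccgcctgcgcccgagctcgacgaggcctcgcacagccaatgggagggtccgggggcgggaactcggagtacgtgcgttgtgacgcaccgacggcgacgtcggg
ZNF580: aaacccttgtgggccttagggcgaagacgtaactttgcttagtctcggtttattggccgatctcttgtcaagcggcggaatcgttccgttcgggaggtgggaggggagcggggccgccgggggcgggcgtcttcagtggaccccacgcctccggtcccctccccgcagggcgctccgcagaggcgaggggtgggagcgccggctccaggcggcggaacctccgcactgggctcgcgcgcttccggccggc
The first pair reads as copies of each other with a single E-box between them, in ZNF761. ZNF628 has 2 E-boxes and ZNF580 none. The GENCODE spans of ZNF628 and ZNF580 begin upstream of these windows, at positions 55476332 and 55635016, so their reads may include an earlier start.

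Direction also went with base composition. Over the longest transcript, members lower with ATOH8 had a median GC content of 40.4% and higher members 62.0%, where all listed genes had 50.4% and 58.7%. For RSL3 the medians were 41.4% for lower and 55.6% for higher members, against 47.9% and 57.9%. All annotated ZNF genes had a median of 43.1%, and all protein-coding genes 49.1%. Of genes with a GC content up to 46%, 9 of 9 members were lower with RSL3, as were 83.6% of 402 listed genes, and 19 of 21 members were lower with ATOH8, as were 82.5% of 302 listed genes. Above 58%, 9 of 9 members were higher with ATOH8, where 40.7% of 413 listed genes were lower, and 3 of 4 were higher with RSL3, where 19.8% of 566 were lower. Across genes, which are not independent replicates, Spearman's rho between GC content and the log2 ratio was 0.51 over the listed RSL3 genes and 0.28 over the listed ATOH8 genes. Over the members it was 0.82 (n = 21) and 0.63 (n = 32). The difference of replicate 1 from replicates 2 and 3 also went with GC content over the listed genes, with rho of 0.54 in DMSO and 0.58 in RSL3.

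**Figure D5:**
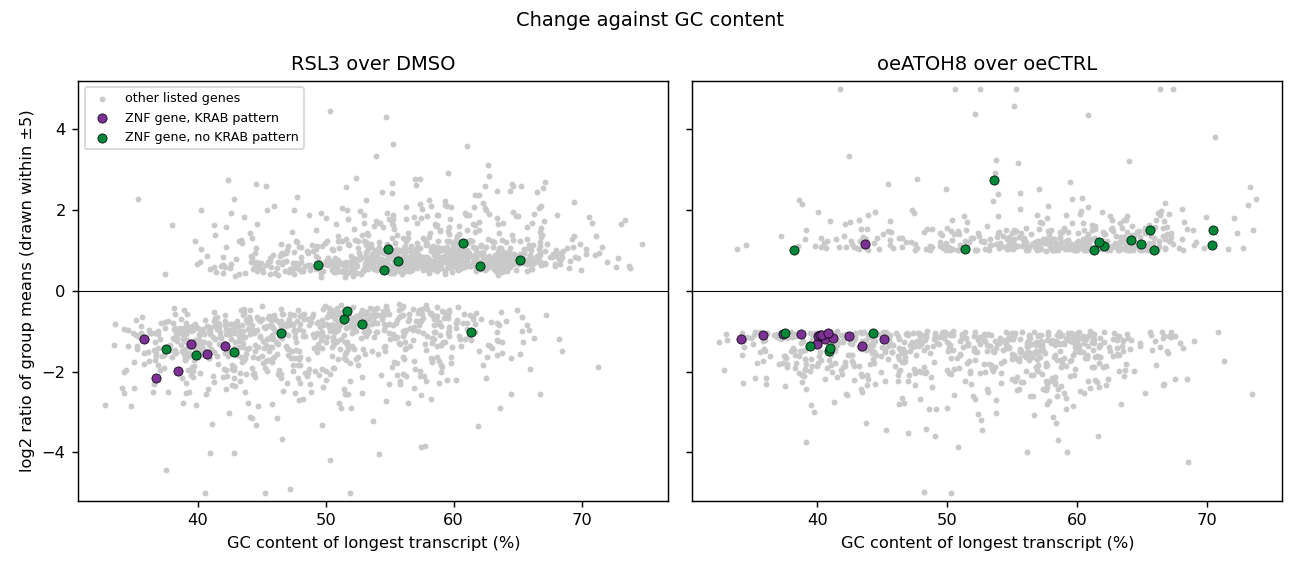
Log2 ratio of group means against the GC content of the longest transcript for listed genes (small points) and ZNF genes (large points), RSL3 at the left and ATOH8 at the right. ZNF genes up to 46% GC lie below 0 in 9 of 9 cases for RSL3 and 19 of 21 for ATOH8.

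When the trend with GC content and transcript length over all listed genes was removed, together with the replicate block, 7 RSL3 members passed in limma (background 58%) and the 12 lower members tested had a median log2 change of -0.28. With ATOH8, 26 passed (background 90.5%), and the 19 lower members stayed negative with a median of -0.48. ZNF107 no longer passed in either table, at 0.14 (adjusted p = 0.532) for RSL3 and -0.063 (adjusted p = 0.477) for ATOH8, and ZNF714 was at -0.12 (adjusted p = 0.688) and -0.0031 (adjusted p = 0.968). ZNF185 was at -0.54 (adjusted p = 0.0541) for RSL3 and 1.43 (adjusted p = 5.69e-10) for ATOH8. ZNF598 stayed at 1.10, and ZNF280C, the higher member with the lowest GC content (38.2%), was at 1.80. ZNF787 and ZNF593 turned negative, at -0.33 (adjusted p = 0.00121) and -0.13 (adjusted p = 0.366). ZNF428, which is GC-rich (61.3%) and fell with RSL3, was at -1.68 (adjusted p = 0.00170). The part of base composition in these differences was not tested.

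The partners of KRAB proteins were scarcely listed. Of 25 genes for the corepressor, HP1, histone methyltransferases and DNA methylation, including TRIM28 and SETDB1, 0 were in the RSL3 table. In the ATOH8 table only UHRF1, which recruits DNA methyltransferase 1 to replicating DNA, was listed. It rose 2.05-fold, from 4329 ± 15.4 to 8868 ± 68.7 scaled reads (SD, n = 3; edgeR adjusted p = 5.69e-09). Of 28 ZSCAN and ZKSCAN genes, which carry the SCAN domain, 1 was listed for RSL3 and 0 for ATOH8. Of 21 ZFP genes, 2 were lower in each table, among them ZFP36 and ZFP36L1, which bind RNA through another kind of finger. Of 42 ZBTB genes, 2 were listed for RSL3, both lower with 1 passing, and 4 for ATOH8, 2 in each direction. Of 18 KLF genes, which encode GC-box factors, 3 were listed for ATOH8, where KLF10, KLF4 and KLF2 rose by 2.08-fold to 2.97-fold. With RSL3, 2 were listed, of which KLF2 rose and KLF3 fell. ZIC2 rose 3.70-fold with RSL3 (limma adjusted p = 0.0188), and none of the SP and EGR genes was listed.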

How the data were processed

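RNA-seq of 12 DU145 libraries was used, with columns headed NC and OE read as oeCTRL and oeATOH8. Per the submitters' processing notes, fastp, HISAT2, StringTie and DESeq2 were used with the build hg38 (GRCh38). Their versions and roles, the strandedness and the treatment of reads with several matches are not given in the sources used here. Without a known strand, reads of a gene and of an antisense or overlapping partner cannot be told apart. The labels do not say whether replicates were separate cultures, so what the p-values measure is the spread between these samples alone, and it may be technical.

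For RSL3 the authors deposited a signal for each gene and library, with genes given by position and strand. Every value was a whole multiple of 1 step per library within 0.001 (100% of values), as reads divided by a size factor are, so whole reads were recovered. The deposited ATOH8 table gives raw counts for 1152 Ensembl identifiers, 1137 with a symbol, and 272 assembled loci. RSL3 genes were named from RefSeq by the same span (1065) or an overlap of at least 0.5 (707) and from GENCODE (12), and 26 stayed unnamed.

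For RSL3, limma 3.58.1 (trended) was run on log2(value + 1) with the size factors of the authors. The filter, filterByExpr of edgeR with a count of 10 and a total of 15 as minimum, left 1720 genes. Fold changes from this scale understate those of low genes. ATOH8 counts were tested with edgeR 4.0.16 (quasi-likelihood), libraries scaled within a group by median ratio and groups scaled so that the empty gap of log2 ratios (-0.97 to 1.03) was centred on 0, which assumes symmetric fold limits. DESeq2 1.42.0 ran under R 4.3.3 as an alternative. Adjustment was by Benjamini-Hochberg over each table, at 0.05, for two-sided p-values. The planned test for RSL3 named limma for values of this kind. Tested on simulated data, limma recovered 94.2% of 2-fold and 100% of 4-fold changes among 1810 genes, with 0.580% of unchanged genes called. For edgeR these were 97.2%, 100% and 1.06% among 1424. The simulated libraries were independent, with the same dispersion for every gene. They held neither the near repeats nor the distance of replicate 1, so these rates do not carry over to the libraries studied.

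In the RSL3 table, libraries of the same replicate number deviated from their group means together (correlations 0.62, 0.48 and 0.46), and the numbers were used as a block. Replicates 2 and 3 crossed at 0.47 and 0.50, as high as when matched, so only replicate 1 stood apart. The block p-values therefore rest on a pairing that the correlations do not show for replicates 2 and 3. The members and lists were chosen with earlier results of these data known. The rule for named genes took members in both tables, per table the 8 largest passing rises and falls with a mean of at least 50 and no overlap, the 3 largest changes per cluster of at least 3 listed members, and up to 4 members with the fewest reads. Other members named were chosen after their values were seen. Promoters, from RefSeq (GRCh38.p14), were aligned globally (gap opening -2, extension -0.5). The share of a pair is the matches over all alignment columns, gaps included. Shared sequence, GC content and reading frames came from GENCODE transcripts.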

Additional observations from a re-analysis of the deposited data

How the results depend on the processing

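Of the RSL3 calls among ZNF genes, 12 as reported, the count was 5 when scaled to totals, 7 with TMM, 7 with relative log expression, 7 with the GC and length trend removed, 0 with every annotated gene as a test and 19 with DESeq2. It was 21 without replicate 1 of both groups, 0 with replicates 2 and 3 averaged (an alternative chosen after seeing the data), and 0 to 20 when single libraries were left out. With the replicate block it was 18, with edgeR 16, without a filter 14, with a mean of at least 50 it was 10, and with pseudocounts of 0.1 and 5 it was 11 and 13. Of 323 member values under alternatives, 201 kept direction and call, 87 lost the call, 34 gained it and 1 changed sign: ZNF107, at 0.14 with the GC and length trend removed. Of the ATOH8 calls, 32 as reported, 18 passed with relative log expression, and the counts were 26 to 32 otherwise, with 31 to 32 when single libraries were left out. With the replicate block 32 passed, although the numbers there share no deviations (correlations of 0.057, 0.048 and 0.088). Of 416 member values, 393 kept direction and call, 21 lost the call and 2 changed sign with the GC and length trend removed, ZNF787 at -0.33 and ZNF593 at -0.13. The cause of these changes was not tested. With 1 library left out, that arm's spread is pooled with the other. Low reads limit ZNF43, ZNF484 and ZNF829, and library depth is unknown.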
